A study of Mus musculus with 10 samples.

Results

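The Hox genes are the 39 homeobox genes of the mouse HoxA, HoxB, HoxC and HoxD clusters, taken by symbol from 21887 protein-coding genes in the RefSeq table of GRCm38.p6, the assembly behind mm10. Binding of the transcription factor OTX2 at these genes was read from HA CUT&RUN peak lists. CUT&RUN releases and sequences DNA next to the target of an antibody in permeabilised cells. Rows that name a Hox gene as nearest in the authors' deposited tables were joined with every peak in a cluster or within 50 kb of it. This gave 31 of 42711 peaks in definitive endoderm (DE) and 3 of 6319 peaks in epiblast stem cells (EpiSCs). Both HA lists come from the tagged line 7H OTX2-dTAG-EGFP (strain BL6/129 hybrid), whose tagged OTX2 was targeted with an anti-HA antibody. Each list pools 2 HA samples of 500000 cells, which the labels do not tie to separate cultures. The medium of the EpiSCs was N2B27 with NVP at 175 nM, FGF2 at 12.5 ng/ml and Activin A at 20 ng/ml. Differentiation to DE took place in CDM, first for 16 h under CHIR (3 µM) and Activin A (40 ng/ml), then for 24 h under LDN (100 nM) and Activin A (100 ng/ml). Sorting with DAPI kept the live cells of the DE samples. The controls were 3 IgG samples of tagged EpiSCs and 1 HA sample of DE from the parental line 5.8 of the same strain. The IgG samples of DE were not used here. Peak lists hold no expression, so the labelled cell types could not be checked against their markers.

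Hox proteins give cells their position along the head-to-tail axis. Genes of low paralog number lie at the 3′ end of a cluster and are switched on early and toward the head, while genes of high number lie at the 5′ end and act toward the tail. A retinoic acid response element on the 3′ side of Hoxb1 is a textbook example of how the anterior genes are induced. OTX2 marks the forebrain, midbrain and anterior endoderm, ahead of the domains in which Hox genes are expressed. Below, groups 1 to 4 are called anterior (12 genes), groups 5 to 8 central (11 genes) and groups 9 to 13 posterior (16 genes).

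Hoxd10, a posterior gene that acts in limb and spinal cord patterning, was overlapped by a peak of both states just before a transcript start. Its gene model spans chr2:74684273-74695106, and the start listed for its promoter lies within that span. The DE peak (chr2:74691766-74691880, 115 bp) ran from 125 to 11 bp before the listed transcript start, and the EpiSC peak (chr2:74691772-74691854, 83 bp) lay wholly inside it. The 250 bases before that start (RefSeq, GRCm38.p6, chr2:74691641-74691890, plus strand, 5′ to 3′) are shown because they hold both peaks, with the bases of each peak in capitals.
Hoxd10, DE peak in capitals: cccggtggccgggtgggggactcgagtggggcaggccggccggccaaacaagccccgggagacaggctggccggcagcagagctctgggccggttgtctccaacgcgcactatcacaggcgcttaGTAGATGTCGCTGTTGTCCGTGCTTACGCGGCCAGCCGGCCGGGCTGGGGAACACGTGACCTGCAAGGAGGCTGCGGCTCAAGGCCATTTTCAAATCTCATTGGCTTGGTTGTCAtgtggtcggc
Hoxd10, EpiSC peak in capitals: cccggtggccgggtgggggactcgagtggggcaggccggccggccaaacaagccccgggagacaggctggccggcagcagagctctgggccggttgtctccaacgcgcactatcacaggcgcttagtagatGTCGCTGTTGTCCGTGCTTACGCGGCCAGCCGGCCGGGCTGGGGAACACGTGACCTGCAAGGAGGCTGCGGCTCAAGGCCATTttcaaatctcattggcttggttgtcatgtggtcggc

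Neither peak held TAATCC or its reverse complement GGATTA, the core motif of OTX2, nor the shorter homeodomain core TAAT (reverse ATTA). An E-box, CACGTG, began 73 bp before the start and lay in both peaks. A CCAAT box, read on this strand as ATTGG, began 26 bp before the start and lay in the DE peak only. Of the Hox genes, 22 matched the RefSeq promoter table, with 24 windows from 250 bp before to 50 bp after a start. None of the 24 windows held TAATCC on either strand, against 7.06% of all 32851 promoter windows. At that share few of 24 windows would hold it. The Hox windows were richer in GC, with a median of 57.7% beside 52.7% over all windows. TAAT was in 19 of the 24 (58.0% of all windows), CCAAT in 15 (37.4%) and CACGTG in 5 (7.15%). TAATCC contains TAAT, so those searches overlap. The last 3 motifs were chosen after the Hoxd10 sequence had been read. In each list 1 of the 24 Hox windows, that of Hoxd10, was overlapped by a peak, whereas 24.7% of protein-coding promoter windows were overlapped by a DE peak and 8.77% by an EpiSC peak. The 22 genes with a window were 9 of HoxA, 3 of HoxB, 1 of HoxC and 9 of HoxD. The remaining 17 Hox genes, Hoxc13 among them, had no window in that table, so peaks just before their starts could not be counted. An absent motif says only that these letters are not in the window.

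The clusters differed in how many DE peaks they held. HoxB (chr11:96194316-96368254) had 16 DE peaks with its flanks, HoxA (chr6:52155367-52260880) had 6, HoxC (chr15:102921131-103036856) had 5 and HoxD (chr2:74668225-74765142) had 4. In EpiSCs, HoxB, HoxC and HoxD had 1 peak each and HoxA had none. Peak density in DE was 5.84 per 100 kb at HoxB (exact 95% Poisson interval 3.34 to 9.48), 2.92 at HoxA (1.07 to 6.35), 2.32 at HoxC (0.753 to 5.41) and 2.03 at HoxD (0.553 to 5.20). These intervals cover counting error only, and all 4 overlap. Over all chromosomes of the gene table the DE density was 1.58 per 100 kb. Consecutive stretches of the genome as long as each region held a median of 3 DE peaks at the length of HoxB (interquartile range 1 to 7) and of 2 at the lengths of the other regions (0 to 5).

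**Figure D1:**
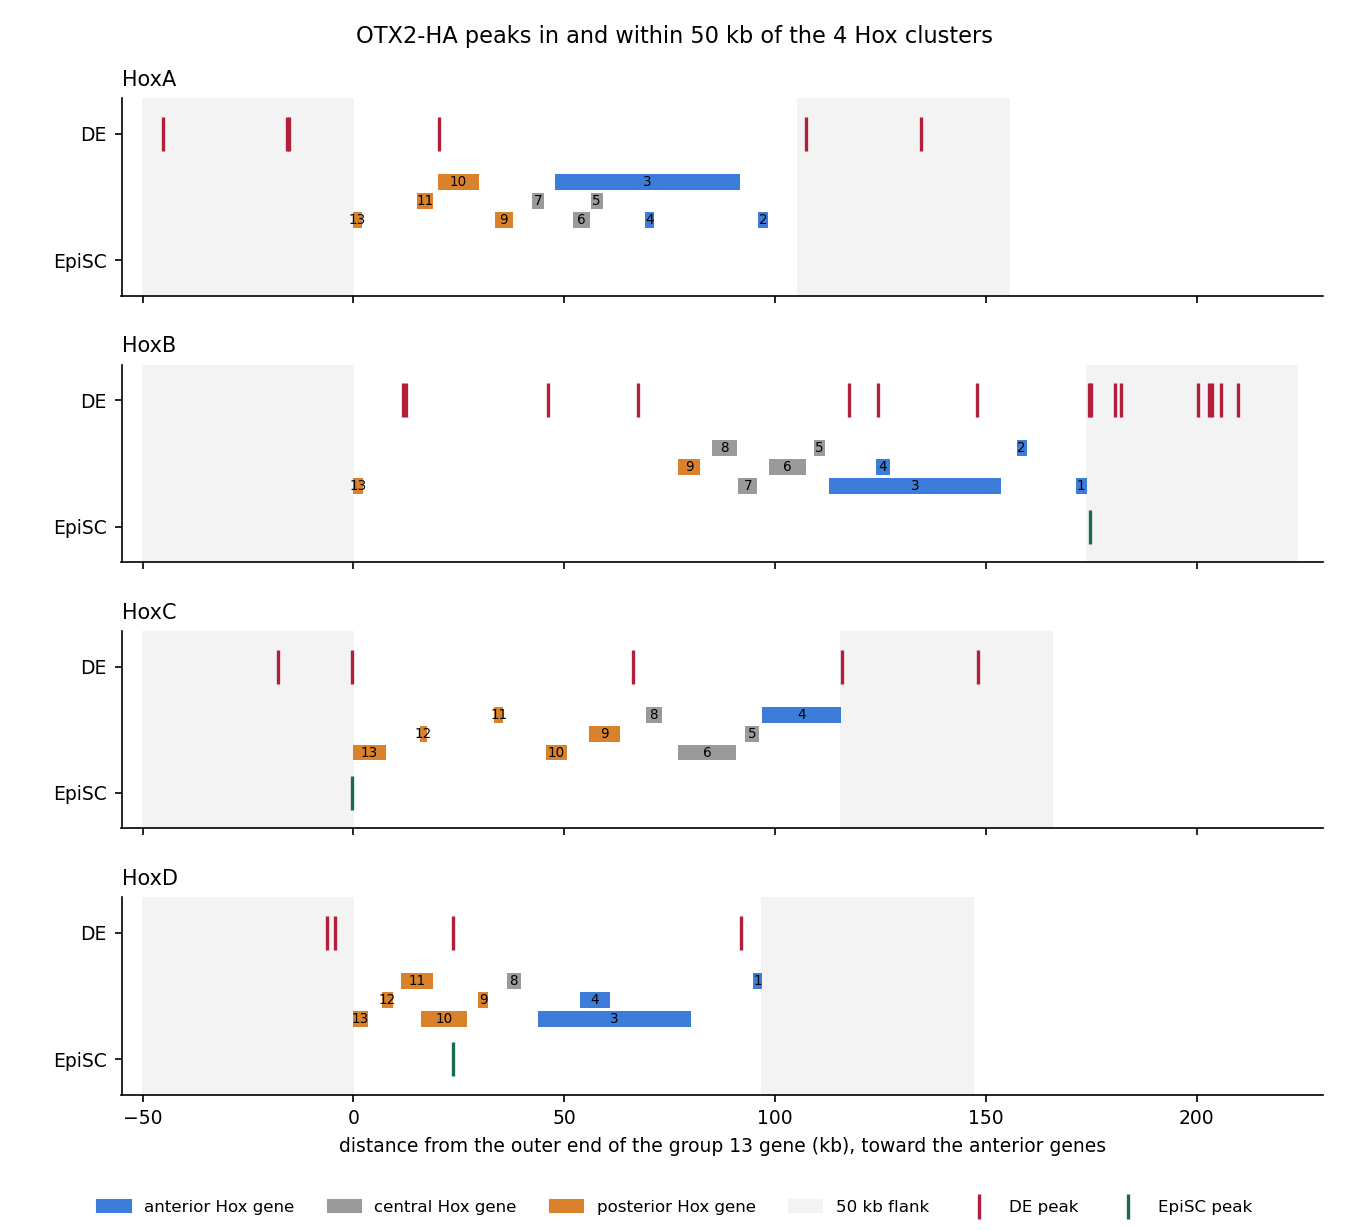
Each panel shows a Hox cluster as distance in kb from the outer end of its group 13 gene, with gene boxes coloured by class and numbered by paralog group (1 of the 39 genes is not drawn), 50 kb flanks in grey, and peak centres as ticks (DE above, EpiSC below). HoxB has 9 DE ticks in its anterior flank, and the EpiSC row has 1 tick each at Hoxb1, Hoxc13 and Hoxd10.

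DE peaks were sparser inside the clusters than in the flanks at HoxA, HoxB and HoxC, while at HoxD the densities were 2.06 inside and 2.0 in the flanks per 100 kb. The inside and flank intervals overlap. The cluster bodies held 11 DE peaks in 492097 bp (2.24 per 100 kb, Poisson interval 1.12 to 4.0), and the flanks held 20 in 400000 bp (5.00, 3.05 to 7.72). Of the flank peaks, 9 lay on the Hoxb1 side of HoxB, a density of 18.0 per 100 kb (8.23 to 34.2), and none lay in the flank beyond Hoxb13. Without HoxB the bodies held 4 DE peaks (1.26 per 100 kb, 0.343 to 3.22) and the flanks 11 (3.67, 1.83 to 6.56), with 7 on the posterior side and 4 on the anterior side. The lower density inside was therefore seen with and without HoxB, whereas the higher count in the anterior flanks was not seen without it. In EpiSCs the bodies held 1 peak and the flanks 2, or 0.336 per 100 kb over all 4 regions (0.0694 to 0.983), beside 0.233 over all chromosomes. At HoxA the count of 0 allows an EpiSC density of up to 1.80 per 100 kb.

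**Figure D2:**
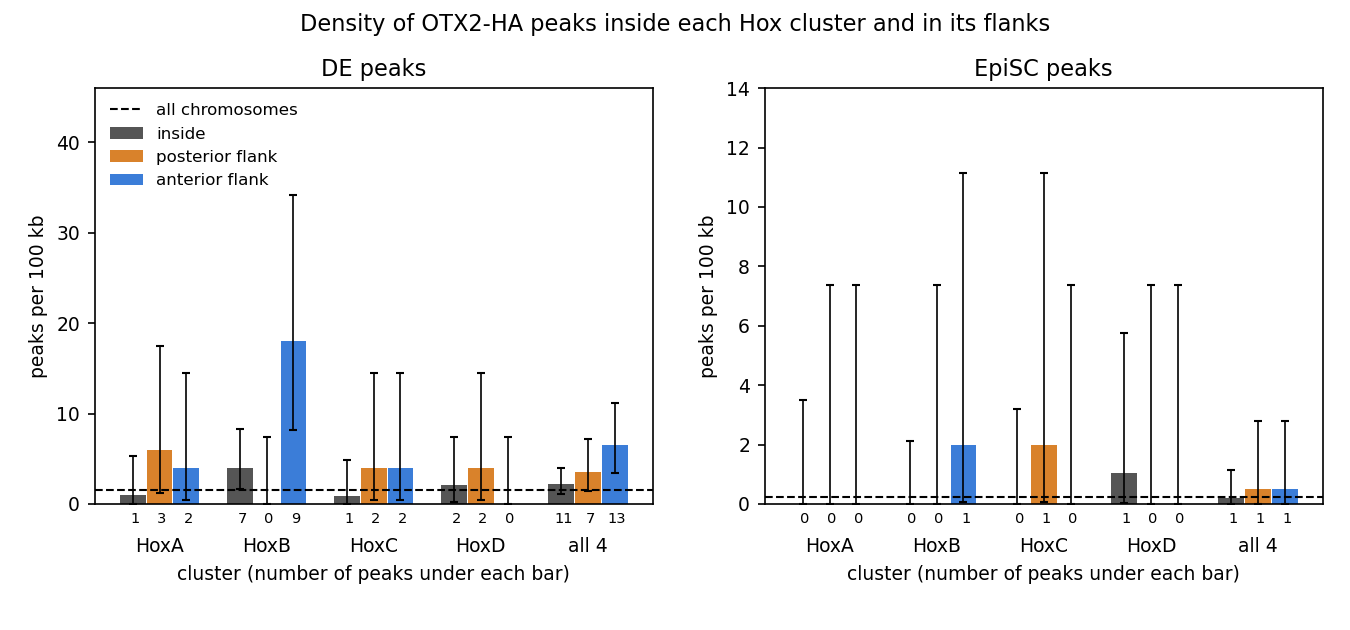
Bars give peaks per 100 kb inside each cluster and in its posterior and anterior 50 kb flanks, with exact 95% Poisson intervals, the peak number under each bar and a dashed line for all chromosomes (1.58 in DE, 0.233 in EpiSC). The anterior flank of HoxB stands at 18.0 in DE.

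Among the anterior genes, DE peaks gathered on the 3′ side of Hoxb1. Hoxb1 (chr11:96365746-96368254), which gives hindbrain segment 4 its identity, was named nearest for 4 DE peaks, the most of any Hox gene. Their centres lay 477, 935, 6837 and 8224 bp beyond its 3′ end, at chr11:96368686-96368776 (91 bp), chr11:96369041-96369338 (298 bp), chr11:96374972-96375210 (239 bp) and chr11:96376400-96376556 (157 bp). The second of these also appeared in EpiSCs (chr11:96369104-96369210, 107 bp), the only EpiSC peak named to an anterior Hox gene. A further 5 DE peaks, named to Gm11531, lay between 26409 and 35853 bp beyond the 3′ end of Hoxb1. They were 150, 482, 342, 365 and 62 bp wide and had no EpiSC counterpart. Within 50 kb of Hoxb1 there were 11 DE peak centres, the highest count among the 39 Hox genes, which Hoxb2 shared. The median over protein-coding genes was 3, and 4.62% of them had 11 or more. That cutoff was taken from the Hox maximum, so the share does not show that Hoxb1 stands out.

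In the anterior flank of HoxA, 2 DE peaks were named to the non-coding RNA gene Hotairm1 (311 bp) and to Rps19-ps14 (103 bp). Hoxd1 (chr2:74762980-74765142), the group 1 gene of HoxD, had a DE peak centred 2790 bp before its transcript start. It was 455 bp wide (chr2:74759963-74760417), lay inside the non-coding RNA gene Haglr and was named to it. Hoxd1 had no EpiSC peak within 50 kb, and the nearest EpiSC centre was 71167 bp away.

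Of the other anterior genes, Hoxb4 (chr11:96318267-96321638) and Hoxc4 (chr15:103018097-103036856), both of which act in the posterior hindbrain and neck, were each named nearest for 1 DE peak. The Hoxb4 peak was 67 bp wide (chr11:96318611-96318677), with its centre inside the gene and 377 bp after the listed start. The microRNA gene Mir10a was 1370 bp from it. The Hoxc4 peak was 76 bp wide (chr15:103036929-103037004), 110 bp past the end of the gene and inside the non-coding RNA gene Gm30528. Hoxb3 (chr11:96307101-96347930) spans Hoxb4 in the gene table and held 3 DE peak centres, named to Hoxb5os, Hoxb4 and Gm11536. No anterior gene of group 2 or 3 was named nearest for a peak in either list.

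Few peaks lay close to the central genes, 1 of 11 of which had a DE peak within 5 kb, beside 57.7% of protein-coding genes. Among protein-coding genes of at most 10 kb, as nearly all central genes are, the share was 37.7%. The counts were 6 of 12 for anterior genes and 7 of 16 for posterior genes. Within 100 kb, however, the central genes' median of 6 DE peaks was no lower than the 5 of the anterior and of the posterior genes. Hoxc8 (chr15:102990539-102994275), which patterns the thorax, was the only one named nearest, for a DE peak of 75 bp (chr15:102987541-102987615) whose centre lay 2961 bp outside it. The same peak was 3134 bp from Hoxc9, so both genes counted as having a peak within 5 kb. No central gene contained a peak centre in either list or was named nearest in EpiSCs. Distances from the 11 central genes to the nearest DE peak ran from 2961 to 35944 bp, with a median of 17676 bp.

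Among the posterior genes, Hoxc13 (chr15:102921131-102928814), known for its part in hair and nail formation, was named nearest for 2 DE peaks and 1 EpiSC peak. The nearer DE peak (chr15:102920771-102920983, 213 bp) lay on the 5′ side of the gene, its centre 254 bp before the first base of the gene model. The EpiSC peak there (chr15:102920710-102920941, 232 bp) was centred 306 bp before it, and 171 bp were common to both. This is the only place in the Hox regions where the EpiSC peak was the wider. The second DE peak, of 93 bp (chr15:102903244-102903336), lay 17841 bp away and was absent from the EpiSC list. Hoxa10 (chr6:52231197-52240854), a gene of the lumbar region and the uterus, had a DE peak of 69 bp inside it (chr6:52240497-52240565), centred 323 bp after its listed start. Hoxa11, which acts in the forelimb and uterus, lay 1574 bp from the same peak. Hoxd11, which patterns the forearm, lay 4807 bp from the DE peak and 4797 bp from the EpiSC peak at Hoxd10.

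The group 13 genes had peaks outside the gene and none inside it. Hoxa13, a gene of the hand, foot and hindgut, had 3 DE peaks in its flank, at 15311, 15731 and 45210 bp, of which the first 2 were named to Gm27866 and the last to Evx1. Hoxd13, which patterns the digits, had 2, at 4466 and 6231 bp, both inside the non-coding RNA gene Gm31790 and named to Evx2. In HoxB, where a long gap separates Hoxb13 from Hoxb9, 4 narrow DE peaks of 68 to 106 bp lay in the gap. They were named to Gm27605 (2 peaks), Gm11539 and Gm53. A further flank peak, of 131 bp and 32428 bp from Hoxc4, was named to 5730585A16Rik.

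By the authors' deposited tables, 7 of the 39 Hox genes were named nearest for a DE peak, 11 peaks in all, beside 50.4% of protein-coding genes. The 7 were Hoxa10, Hoxb1, Hoxb4, Hoxc4, Hoxc8, Hoxc13 and Hoxd10. In EpiSCs 3 Hox genes were named, with 1 peak each, beside 15.3% of protein-coding genes. The other 20 DE peaks of the regions carried 13 other names. A nearest-gene count divides peaks among close neighbours, so distance was measured as well. A DE peak centre lay inside 4 of the 39 Hox genes (36.9% of protein-coding genes), within 5 kb of 14 (57.7%), within 20 kb of 32 (72.0%), within 50 kb of 39 (82.8%) and within 100 kb of 39 (89.0%). The EpiSC numbers were 1 (9.47%), 4 (20.4%), 9 (29.3%), 16 (40.8%) and 30 (53.2%). At 0 to 20 kb the Hox shares were below those of all protein-coding genes for EpiSC peaks, and for DE peaks they were below at 0 and 5 kb and above from 20 kb on. The lists differ in length. When only the 6319 widest peaks in DE were kept, a DE peak lay within 50 kb of 12 Hox genes and an EpiSC peak within 50 kb of 16. Named to a Hox gene were 1 DE peak and 3 EpiSC peaks, so the order of the states turned in these counts. The share of all protein-coding genes was not computed in this setting, so the turn cannot be called particular to Hox genes. The density over the Hox regions kept its order, with 0.673 DE and 0.336 EpiSC peaks per 100 kb.

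Hox genes are short, with a median length of 3737 bp against 17169 bp for protein-coding genes, and short genes contain fewer peaks. Among genes of at most 10 kb, a limit chosen after seeing the data, 2 of 33 Hox genes contained a DE peak centre, beside 12.1% of all such genes, 11 had one within 5 kb (37.7%) and 33 within 50 kb (71.3%). For EpiSC peaks the counts were 0 (3.62%), 3 (14.9%) and 13 (36.3%). The median distance to the nearest DE peak was 9605 bp over all 39 Hox genes and 671 bp over protein-coding genes. With the length limit it was 9605 bp for Hox genes and 13.5 kb for the others. Genes of a cluster share peaks and are not independent, so no test was made.

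By class, 6 DE peaks were named to 3 of 12 anterior genes, 1 to 1 of 11 central genes and 4 to 3 of 16 posterior genes. Of the 6 anterior peaks, 4 were at Hoxb1; without HoxB, 1 DE peak was named to anterior and 4 to posterior genes. When every DE peak of the regions was given to the nearest Hox gene by distance, 17 fell to anterior, 1 to central and 13 to posterior genes, and without HoxB 5, 1 and 9. A flank peak can only fall to the gene at that end of a cluster; of the 11 DE peaks inside the clusters, 4 fell to anterior, 1 to central and 6 to posterior genes, HoxB included. The median distance to the nearest DE peak was 5.86 kb for anterior genes (range 0 to 36.2 kb), 17.7 kb for central genes and 7.71 kb for posterior genes (0 to 30.9 kb), so the ranges overlap throughout. In EpiSCs 1 peak was named to an anterior gene and 2 to posterior genes. Which class had more DE peaks thus changed without HoxB and, by distance, also without the flanks.

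**Figure D3:**
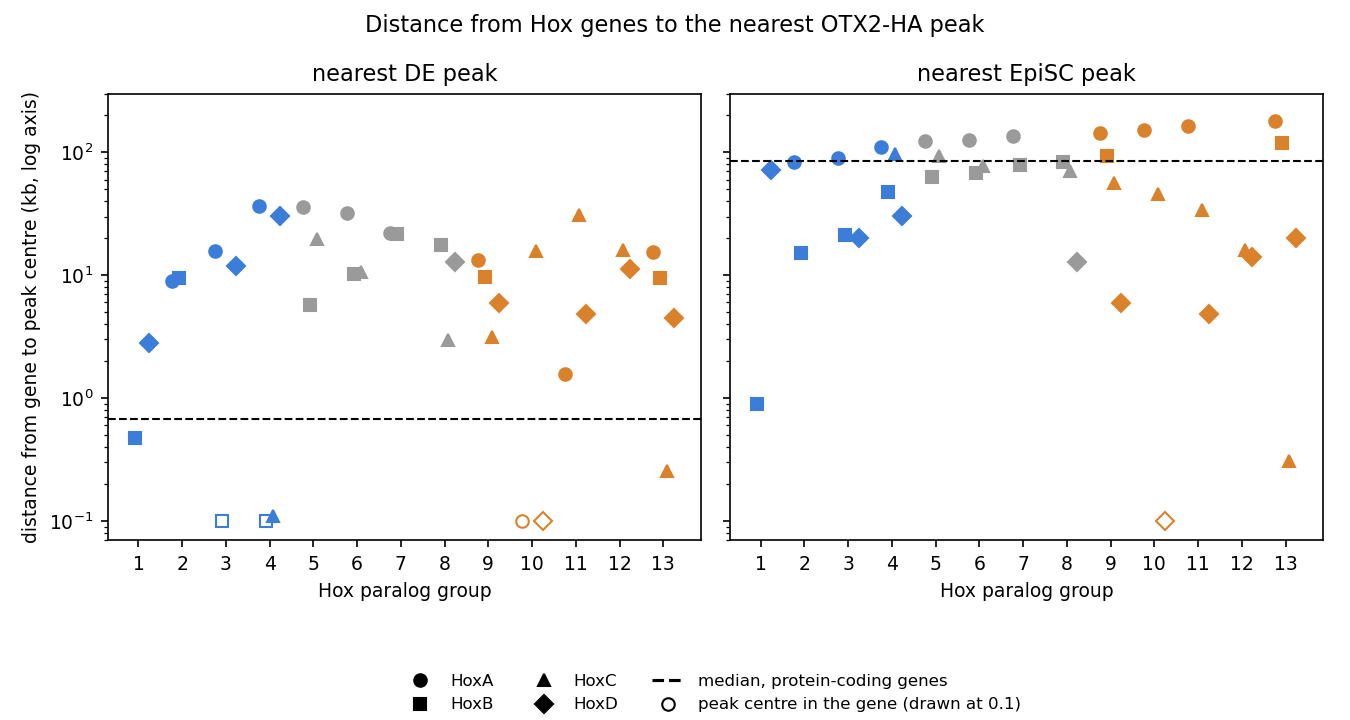
Each point is a Hox gene (1 of the 39 is not drawn) at its paralog group, with the distance in kb (log axis) from the gene to the nearest DE (left) or EpiSC (right) peak centre; shapes mark clusters, open points, drawn at 0.1 kb, have a centre inside the gene, and dashed lines mark medians of protein-coding genes. In DE Hoxb1 lies at 477 bp and Hoxd1 at 2790 bp, and in EpiSCs Hoxb1, Hoxc13 and Hoxd10 lie below 1 kb.

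All 3 EpiSC peaks of the Hox regions shared 1 bp or more with a DE peak (exact Clopper-Pearson 95% interval 29.2 to 100%), beside 78.8% of the EpiSC list. The overlaps covered the whole EpiSC peak at Hoxb1 and at Hoxd10, and 73.7% of it at Hoxc13. Where both peaks had to be covered by 50%, Hoxc13 and Hoxd10 remained (66.7% of the 3), and when only the 6319 widest peaks in DE were kept Hoxb1 alone did (33.3%). Over the whole genome 1906 of those 6319 DE peaks overlapped an EpiSC peak, so the fall was not particular to the Hox regions. In the other direction, 3 of 31 DE peaks were shared (9.68%, 2.04 to 25.8%), beside 11.7% of the DE list. The other 28 DE peaks had no EpiSC counterpart, among them the peaks near Hoxd1 and inside Hoxa10 and Hoxb4. The DE list held far more peaks and the read depth of both is unknown, so a difference between the states and a difference in depth or peak calling cannot be told apart. No peak of the 3 EpiSC IgG lists or of the parental HA list lay within 100 kb of a Hox cluster, but these lists hold only 202, 149, 200 and 14 peaks and so say little about these regions.

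The HA lists give no score or height, and width was the only measure of a peak itself. The 11 DE peaks inside clusters had a median width of 78 bp (range 67 to 455 bp), the 20 in flanks 144.5 bp (62 to 482 bp), and the whole DE list 138 bp (interquartile range 93 to 209 bp). Without HoxB the medians were 95 bp for the 4 peaks inside and 107 bp for the 11 in flanks, so most of the gap in width came with HoxB. Of those inside, 6 were under 80 bp, beside 15.1% of the DE list, and 9 were under 110 bp, beside 35.2%. The Haglr peak near Hoxd1 was the only one inside a cluster wider than 115 bp. Limiting the DE list to its 6319 widest peaks, the length of the EpiSC list, left 6 of the 31 (14.8% of the DE list). They were the peak named to Hotairm1, the shared peak at Hoxb1, 3 peaks named to Gm11531 and the Haglr peak. EpiSC widths were 83 bp at Hoxd10, 107 bp at Hoxb1 and 232 bp at Hoxc13, beside a list median of 141 bp, and none was under 80 bp (2.64% of the EpiSC list).

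**Figure D4:**
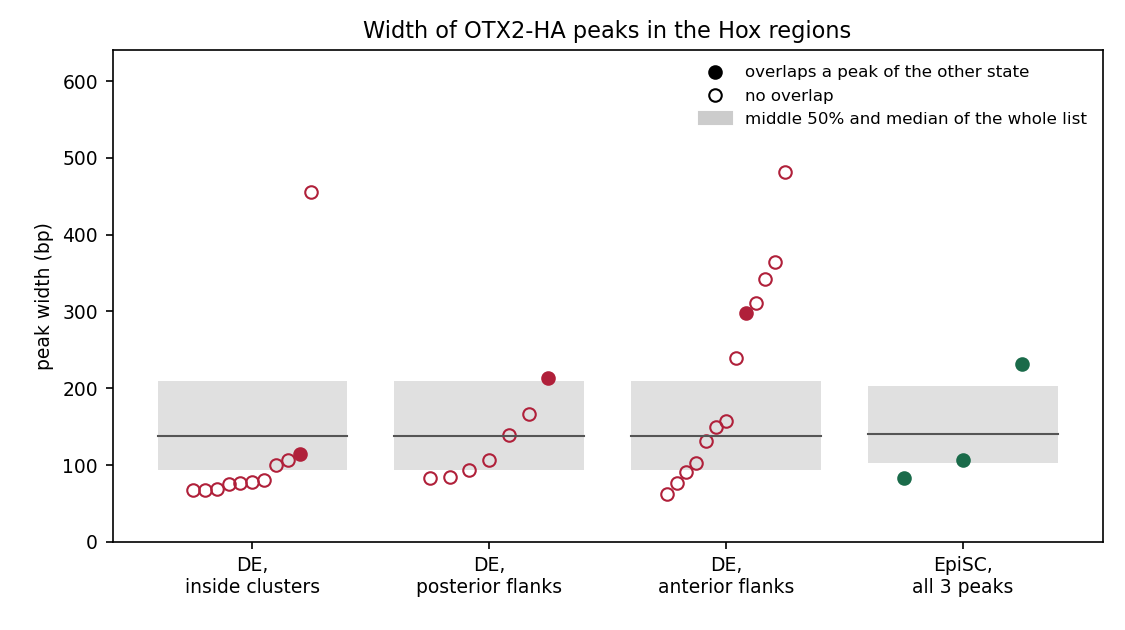
Each point is a peak of the Hox regions with its width in bp, filled where it overlaps a peak of the other state; grey bands and lines give the middle 50% and the median of the whole list. Inside clusters 6 of 11 DE peaks are under 80 bp, while the anterior flanks reach 482 bp.

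The TALE proteins bind DNA together with Hox proteins, and 9 of 9 of their genes had both a DE and an EpiSC peak within 50 kb, beside 82.8% (DE) and 40.8% (EpiSC) of protein-coding genes, with a median of 7 DE and 2 EpiSC peaks beside 3 and 0 both for the 39 Hox genes and for all protein-coding genes. Pknox2 had 16 DE and 3 EpiSC peaks, and Meis1 had 10 and 1. Pbx3 had 9 and 1, Pbx2 had 7 and 6, and Pbx4 had 6 and 2. Meis3 had 5 DE and 2 EpiSC peaks, and Meis2 and Pknox1 had 5 and 1 each. Several of these genes are long, which widens their windows.

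The ParaHox and caudal genes are relatives of Hox genes; Pdx1 and the Cdx genes act in the gut and tail, and Gsx1 and Gsx2 in the brain. Of these, 6 of 6 had a DE peak within 50 kb (82.8% of protein-coding genes) and 1 of 6 an EpiSC peak (40.8%). The pancreas and gut genes Pdx1 and Cdx2, whose windows overlap on chromosome 5, had 8 and 7 DE peaks. Gsx1, whose window on chromosome 5 overlaps that of Pdx1, had 3. Cdx1 and Gsx2 had 2 each, and Gsx2 alone had an EpiSC peak. Of 8 Polycomb and trithorax genes, which keep Hox clusters silent or active, 8 had a DE peak and 5 an EpiSC peak within 50 kb (82.8% and 40.8% of protein-coding genes). Jarid2, an accessory subunit of Polycomb complex 2, had 16 DE and 6 EpiSC peaks, Kmt2b had 9 and 4, and Kmt2a had 6 and 1. Jarid2 is 190870 bp long, which widens its window. Cbx2 had 7 and Eed 5 DE peaks with none in EpiSCs, and Men1 and Suz12 had 4 and 1 each. Of the homeobox genes next to the clusters, Evx1 beside HoxA had 5 DE peaks and no EpiSC peak, and Evx2 beside HoxD had 3 and 1. The Evx2 peaks and some of the Evx1 peaks are peaks of the Hox regions described above, counted again.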

How the data were processed

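The HA lists hold intervals and nearest-gene names with no score. Each deposited HA list pools both replicates of a state, so no value has a replicate spread and no test between states was possible. Peaks were merged over 50 bp, per the file names. The submitters' processing notes name Bowtie2 2.3.5.1, SAMtools 1.14, Picard 2.26.10, bedtools 2.30, MACS2 2.2.6 and mm10; caller settings are not given in the sources used here. In the labels, EpiSC HA replicate 2 and the DE IgG sample of the tagged line each point to the merged DE HA list, which was read as a slip. Depth is unknown.

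Positions were converted to 1-based coordinates. Distance runs from a peak's centre to the nearer end of a RefSeq gene model, which has no exons in the table used, so exon and intron were not separated. The deposited marks for differential expression were not used. Shares carry exact Clopper-Pearson and counts exact Poisson intervals (scipy 1.17.1). Every Hox gene was counted, and those named nearest for a peak or with a peak centre within 5 kb are given by name; of the other lists, each gene with an EpiSC peak within 50 kb and up to 5 with the most DE peaks are named. A few of these genes are counted but not reported here by name. Scripts were tested on simulated peaks. The genes, lists and regions were chosen with earlier results of these data known.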

Additional observations from a re-analysis of the deposited data

How the results depend on the processing

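No paired analysis was possible because both HA replicates of a state were pooled into 1 list, and for the same reason no replicate could be left out. Over 15 alternatives, 92 values were computed; 73 stayed within 1.5 times (counts), their interval (densities, shares) or the interquartile range (widths), and 19 did not. No HA peak of the regions overlapped an IgG or parental peak, so leaving such peaks out changed nothing and, with control lists of 14 to 202 peaks, says nothing about stability. EpiSC counts, density and width also could not change with the 6319 widest DE peaks. Nor could they with a minimum width of 78 bp, which is the EpiSC list's own. The EpiSC share counted as unmoved at 33.3%, because the interval on 3 peaks is 29.2 to 100%. The 73 values are thus no measure of stability. With no flank, the DE density was 2.24 per 100 kb and the median widths 78 bp in DE and 83 bp in EpiSC. Within 5 kb, 14 Hox genes had a DE peak and 4 an EpiSC peak; within 20 and 100 kb, 9 and 30 had an EpiSC peak. With the 6319 widest DE peaks, the density was 0.673 per 100 kb, the median width 353.5 bp, 12 Hox genes had a DE peak within 50 kb, and 1 peak was named to a Hox gene, 1 to an anterior and 0 to posterior genes. With a minimum width of 78 bp in both lists, 7 DE peaks were named. By distance, 17 DE peaks fell to anterior and 13 to posterior genes. Without HoxB, chosen after seeing the data, 6 DE peaks were named, 1 of them anterior, and 0 EpiSC peaks were anterior.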

Other observations

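Between 50 and 100 kb from the clusters lay 9 more DE and 3 more EpiSC peaks. At HoxA, 2 EpiSC peaks in the anterior direction were named to the non-coding RNA gene Halr1, at chr6:52078780-52078921 (142 bp) and chr6:52079054-52079256, and the second overlapped a DE peak of 222 bp at chr6:52079137-52079358. These were the EpiSC peaks nearest to HoxA, the cluster with none inside it or in its 50 kb flanks. At HoxC the third EpiSC peak, of 121 bp and named to D930007P13Rik, lay 97140 bp from Hoxc4 and had no DE counterpart.

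The clusters also hold microRNA genes, of which those of the miR-10 and miR-196 families are known to repress Hox transcripts. The nearest DE peak lay 1370 bp from Mir10a, 3439 bp from Mir196a-1, 10366 bp from Mir196b, 14144 bp from Mir196a-2, 21965 bp from Mir615 and 34053 bp from Mir10b. Their nearest EpiSC peaks were between 34257 bp (Mir10b) and 150926 bp (Mir196b) away.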
